A study of Mus musculus with 3 samples.

Results

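The surroundings of the Sall1, Sall3 and Sall4 genes were compared for Foxd3 binding in mouse embryonic stem cells, through 21 listed peaks out of 7975 in the series. The members were every peak that met a window of 220 kb around Sall1 (chromosome 8, 91450000 to 91670000), of 230 kb around Sall3 (chromosome 18, 81060000 to 81290000) or of 230 kb around Sall4 (chromosome 2, 168470000 to 168700000), all on mm9. The HA list gave 10 of its 3406 peaks and the Flag list 11 of its 4569. The windows were chosen by the listed peak positions around these genes, so the presence, number and overlap of peaks in them are given as descriptions, without a test.

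Sall proteins are zinc finger transcription factors related to Drosophila spalt. Sall4 is part of the pluripotency network of embryonic stem cells, where it is known to act with Pou5f1 and Nanog. Sall1 is also expressed in these cells and is known from kidney and limb development, and Sall3 is known from neural and craniofacial development. Foxd3 is a forkhead factor of pluripotent cells and neural crest that binds enhancers as well as promoters, so a site far from a gene start is a usual kind of site for such a factor.

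Chromatin immunoprecipitation with sequencing was applied to a line derived from LF2 stem cells by lentivirus, which carried Foxd3 with Flag and HA tags in addition to the cells' own gene. Cells were kept without feeders in serum and LIF, and all samples share this line and this culture. The anti-HA group and the anti-Flag group are 1 library each, and the input of total genomic DNA was not analysed here. Each list gives only the position of a peak, so a peak has a width in bp but no height, and read depth is unknown. Because both antibodies recover the same added protein and no replicate exists, agreement between lists is the only repeat measurement of a site, and a control precipitation from untagged cells was not analysed here.

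The Sall1 window held most of the peaks. It had 7 HA and 7 Flag peaks, which formed 8 separate sites after overlapping peaks were joined, and 6 of these sites were in both lists. The Sall4 window had 2 HA and 2 Flag peaks at 3 sites, with 1 site in both lists. The Sall3 window had 1 HA peak and 2 Flag peaks at 2 sites, again with 1 in both. Peaks were counted as shared from 1 bp of overlap.

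Density in the Sall1 window was 31.8 peaks per Mb in each list, against 1.30 HA and 1.75 Flag peaks per Mb over all chromosomes. Sall4 had 8.70 peaks per Mb in each list, and Sall3 had 4.35 HA and 8.70 Flag peaks per Mb. To set these numbers beside other places that hold peaks, a stretch of the same length was started at every listed peak. A stretch of 220 kb held at least 7 HA peaks from 26 of 3406 starts (0.763%), and at least 7 Flag peaks from 40 of 4569 starts (0.875%). These stretches overlap one another, and some of them begin at or near the Sall1 sites. A 230 kb stretch begun at the first Sall4 peak of each list reaches past the window and held 3 HA and 3 Flag peaks, and 17.6% of all HA and 23.1% of all Flag stretches held at least as many. Begun at the first Sall3 peak, it held 3 HA and 5 Flag peaks, against 17.6% of HA stretches with at least 3 and 4.6% of Flag stretches with at least 5. For both genes these counts include peaks beyond the window. At the count of the Sall4 window itself, 2 peaks per list, 43.3% of HA and 50.9% of Flag stretches of 230 kb held at least as many. The 2 Flag peaks of the Sall3 window have the same 50.9%, and every HA stretch holds at least its 1 HA peak by construction. The windows were drawn where peaks were already known, and nothing further is read from these shares.

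**Figure D1:**
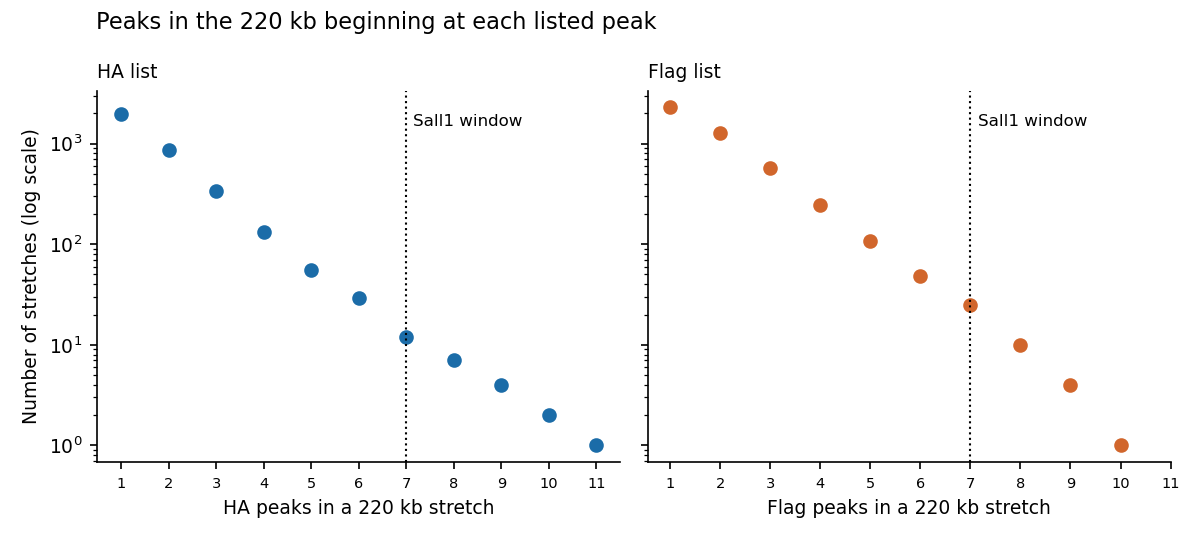
Number of 220 kb stretches (log scale) by the number of peaks they hold, with a stretch begun at every HA peak (left) and every Flag peak (right); the dotted line marks the 7 peaks of the Sall1 window. Most stretches hold 1 peak, and the fullest hold 11 HA or 10 Flag peaks.

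The listed sites at Sall1 lay elsewhere relative to the gene than those at Sall3 and Sall4, which number only 2 and 3. No exact mm9 gene model was used here. Gene ends are approximate positions supplied with the choice of loci, rounded to 1 kb for Sall1 and Sall4 and to 10 kb for Sall3, and no site was placed in an exon, an intron or a UTR. Sall1 runs from about 91.551 to 91.568 Mb and is on the minus strand in RefSeq, so its start is at the higher coordinate. Sall3 (about 81.16 to 81.18 Mb) and Sall4 (about 168.573 to 168.593 Mb) are known to be transcribed in the same direction.

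At Sall1 no listed peak fell in the gene or at its start. All 7 HA peaks and 6 of the 7 Flag peaks lay on the lower-coordinate side, which is downstream of the gene, and the seventh Flag peak lay upstream. At Sall4 both HA peaks and 1 Flag peak had their centres inside the approximate gene span, nearer to its start, and the other Flag peak lay upstream. At Sall3 all 3 peaks had their centres between 0.437 and 0.962 kb from the approximate start, which is closer than the rounding of that position. Sites at Sall1 were thus mostly distal and downstream. Those at Sall4 lay mostly in the part of the gene toward its start, and those at Sall3 near the approximate start. Because the Sall3 ends are rounded to 10 kb, a difference in place between Sall3 and Sall4 is not resolved. In the gene order of RefSeq on GRCm38.p6, Sall1 lies between Cyld and Tox3, Sall3 between Atp9b and Galr1, and Sall4 between Atp9a and Zfp64. A peak between genes could belong to either neighbour, and which gene a site acts on was not measured.

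**Figure D2:**
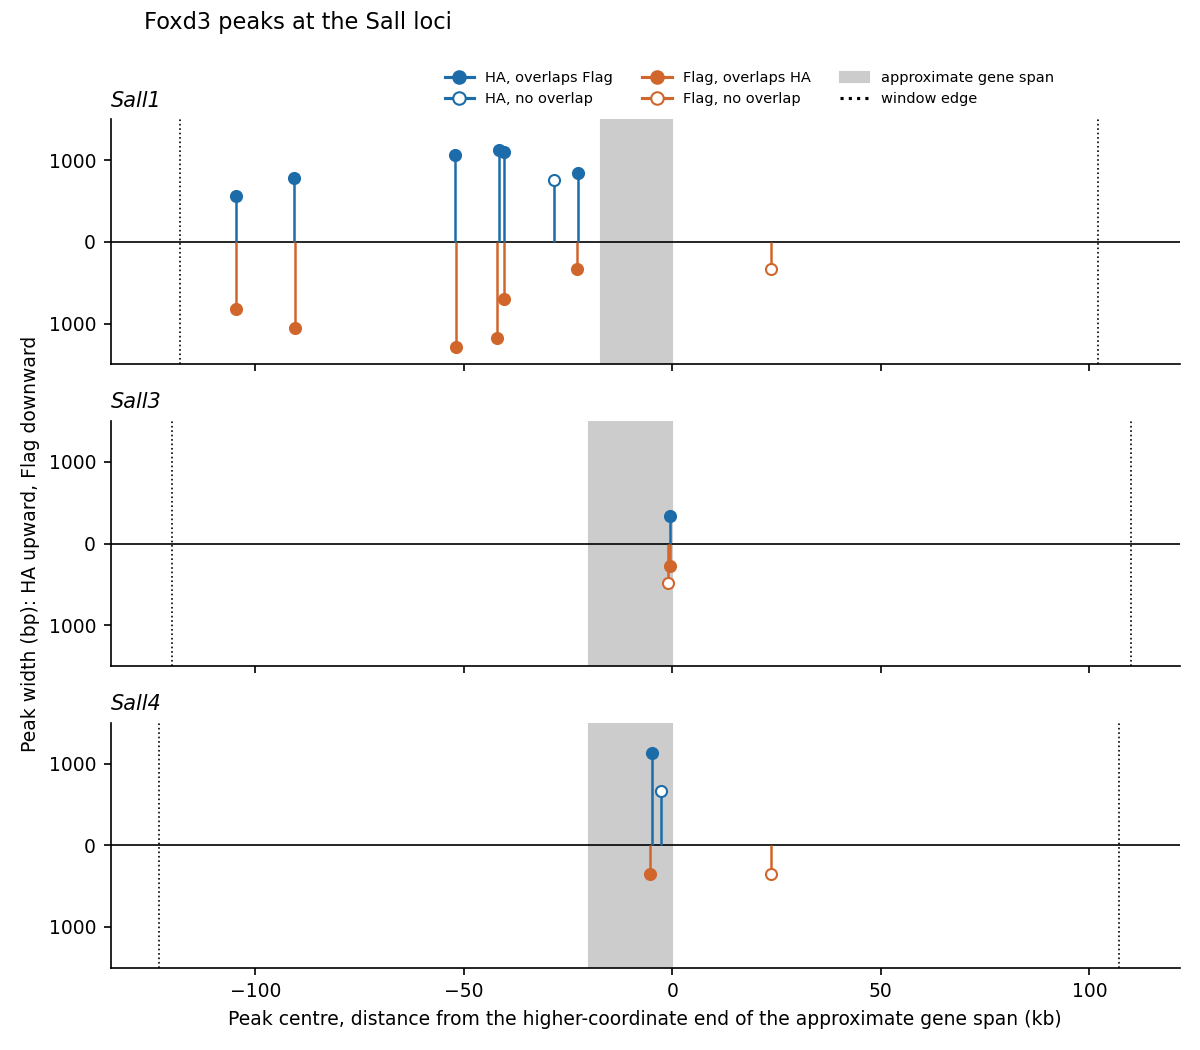
Peak centres as distance from the higher-coordinate end of each gene span (kb), with peak width (bp) drawn upward for HA and downward for Flag. Filled circles overlap a peak of the other list, and open circles do not. Grey marks the approximate gene span and dotted lines the window. Sall1 has 7 HA and 7 Flag peaks, all outside the grey span. All 3 Sall3 peaks and 3 of the 4 Sall4 peaks lie inside it. The Sall3 ends are rounded to 10 kb, so whether its peaks lie inside the gene itself is not resolved.

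The farthest Sall1 site lay about 87.7 kb beyond the downstream end of the gene. Its HA peak spanned 91463084 to 91463648 (565 bp) and its Flag peak 91462899 to 91463718 (820 bp), with the HA peak wholly inside the Flag peak. The next site had a 780 bp HA peak (91477012 to 91477791) inside a 1059 bp Flag peak (91476943 to 91478001), about 73.5 kb beyond the gene. In both of these outer sites the Flag peak was the wider and the centres were less than 100 bp apart, at 57.5 and 70.5 bp.

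After a gap of 37.4 kb without a listed peak came the densest part of the Sall1 locus. Peaks were linked into a group when the gap between them was below a limit that lies between the 11.1 kb and 13.2 kb gaps of this locus. The HA list then had 5 peaks in 1 group of 30.4 kb (91515425 to 91545816), whose nearer end lies about 5 kb from the downstream end of the gene. The Flag list had 3 peaks in a group of 12.4 kb (91515537 to 91527898), and its remaining peaks in the window stood alone. With the same limit, groups of 3 or more hold 3.55% of the peaks in either list. No group of 3 was possible within the Sall3 or Sall4 window, where each list has only 1 or 2 peaks. With a limit of 5 kb the largest group at Sall1 was 2 peaks in each list, so a group of 3 or more there depends on the limit.

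The first site of that group was wide with both antibodies, at 1061 bp in HA (91515425 to 91516485) and 1292 bp in Flag (91515537 to 91516828). This Flag peak was wider than 97.5% of the Flag list. A pair of adjoining sites followed. One had a 1118 bp HA peak (91525889 to 91527006) and a 1173 bp Flag peak (91525437 to 91526609), and its partner had a 1095 bp HA peak (91527132 to 91528226) and a 694 bp Flag peak (91527205 to 91527898). Both antibodies divided this stretch into 2 peaks, with 125 bp between them in HA and 595 bp in Flag. At the first of the pair the Flag centre lay 424.5 bp from the HA centre, toward lower coordinates, and the HA gap lay wholly inside the Flag gap.

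The site nearest to Sall1 was about 5.60 kb beyond its downstream end. There the HA peak was 838 bp wide (91544979 to 91545816) and the Flag peak 338 bp (91545015 to 91545352), wholly inside it. Between this site and the adjoining pair lay a 757 bp peak in the HA list only (91539281 to 91540037), with 4.98 kb to the nearest Flag peak. It was wider than 79.0% of the HA list. The Flag-only site was a 330 bp peak (91591415 to 91591744) about 23.6 kb upstream of the gene start, and the nearest HA peak was 45.6 kb away.

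**Figure D3:**
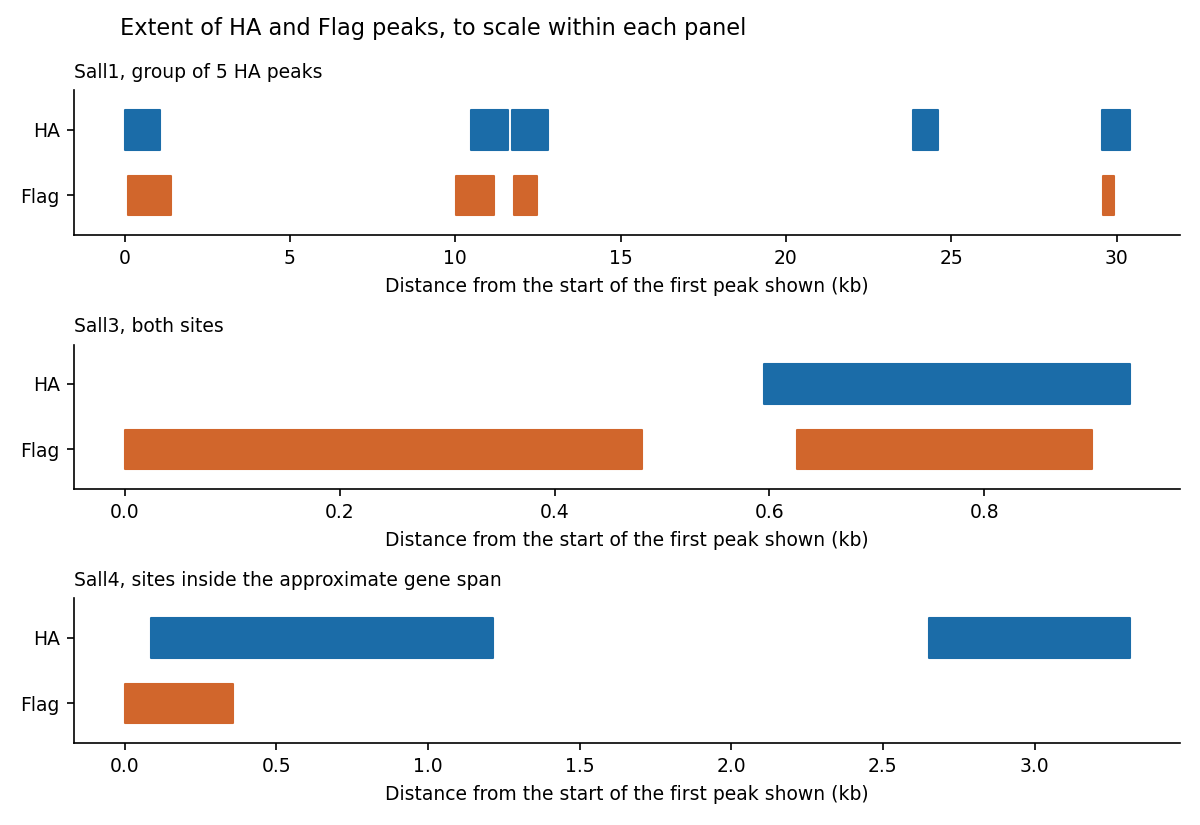
Extent of HA (upper) and Flag (lower) peaks to scale within each panel, as distance from the first peak shown (kb): the Sall1 group of 5 HA peaks, both Sall3 sites, and the Sall4 sites inside the approximate gene span. The Sall1 peaks align in 4 places and 1 HA peak has no partner; the Sall4 Flag peak lies at the lower-coordinate edge of its HA peak, with 271 of its 357 bp inside it.

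Sall4, the family member most tied to pluripotency, had its shared site about 5 kb inside the approximate start. The HA peak there was 1129 bp wide (168587464 to 168588592), wider than 95.7% of the HA list. The Flag peak was 357 bp (168587378 to 168587734), and 271 bp of it met the HA peak, at the lower-coordinate edge of that peak. The 2 centres were 472 bp apart. A 661 bp HA peak (168590031 to 168590691) lay about 2.64 kb inside the approximate start and had no Flag overlap, although the nearest Flag peak was 2.30 kb away. The remaining Sall4 site was a 353 bp Flag peak (168616574 to 168616926) about 23.8 kb upstream of the approximate start, and the nearest HA peak was 25.9 kb away.

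Sall3 had the narrowest shared site. Its HA peak was 341 bp (81179393 to 81179733), wider than only 8.87% of the HA list, and its Flag peak was 275 bp (81179424 to 81179698), wider than 6.37% of the Flag list. The Flag peak was wholly inside the HA peak and the centres were 2 bp apart, the closest match of the 8 pairs. A second Flag peak of 482 bp (81178798 to 81179279) ended 113 bp before the HA peak began. It counted as Flag-only because the rule asked for overlap, although it adjoins the shared site.

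Over the 3 loci 8 of 10 HA peaks overlapped a Flag peak (80%), against 73.3% of all HA peaks. In the other direction 8 of 11 Flag peaks overlapped an HA peak (72.7%), against 54.7% of all Flag peaks. Most of these peaks are neighbours at Sall1, so they are not independent and no interval is given. By locus, 6 of 7 HA peaks at Sall1 were shared, 1 of 2 at Sall4 and 1 of 1 at Sall3. The peaks at Sall3 and Sall4 are too few to compare sharing between the loci. Both unshared HA peaks, at Sall1 and Sall4, had a Flag peak within 10 kb, against 14.3% of all unshared HA peaks. Of the 3 unshared Flag peaks 1, at Sall3, had an HA peak within 10 kb, against 8.11% of all unshared Flag peaks. The windows were drawn where peaks were already known and hold more peaks per Mb than the lists, so nothing further is read from these shares.

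Median widths are given by locus and antibody, although Sall3 and Sall4 have only 1 or 2 peaks in each list. The median HA width was 838 bp at Sall1 (565 to 1118 bp, 7 peaks), 895 bp at Sall4 (661 and 1129 bp) and 341 bp at Sall3 (1 peak), against 547 bp for the HA list. The median Flag width was 820 bp at Sall1 (330 to 1292 bp, 7 peaks), 355 bp at Sall4 (353 and 357 bp) and 378.5 bp at Sall3 (275 and 482 bp), against 490 bp for the Flag list. Sall1 was thus above the list median with both antibodies, Sall3 below it with both, and Sall4 above it in HA and below it in Flag. At Sall4 the HA and Flag medians cover partly different sites, since 1 peak of each list there is unshared. The peaks at Sall3 and Sall4 are too few to compare widths between the loci. Of the 10 HA peaks 7 were wider than the upper quartile of their list, and of the 11 Flag peaks 5 were, where 25% of each list is by construction. These 5 Flag peaks were all at Sall1.

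Narrow peaks were a larger part of the Flag set. Among the 11 Flag peaks 5 were narrower than the lower quartile of 369 bp, where 24.8% of the Flag list is by construction. Of these 5 peaks 3 were shared, against 28.6% of all Flag peaks below that quartile. The 5 were the Sall1 site nearest the gene, both Sall4 peaks, the shared Sall3 peak and the Flag-only peak upstream of Sall1. In the HA set only the Sall3 peak was below the lower quartile, where 25% of the HA list is. This HA peak was shared, as were 62.8% of all HA peaks below that quartile.

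The 8 pairs had centres farther apart, at the median, than pairs of the whole lists. The median distance between centres was 170.75 bp, against 50.5 bp over all 2474 pairs of 1 HA and 1 Flag peak. Centres lay within 100 bp in 3 of 8 pairs, against 76.3% overall. The shorter peak was wholly inside the longer in 5 of 8 pairs, against 50.9%. Flag gave the wider peak in 4 pairs, all at Sall1, and HA in the other 4, an even division like that of all pairs (1200 and 1269). In 2 pairs the Flag peak had less than 50% of the HA width, at the Sall4 shared site (ratio 0.316) and at the Sall1 site nearest the gene (0.403), and 52 of the 2474 pairs did so. Of the 8 pairs 6 are neighbours at Sall1, and 7 of the 10 HA members are wider than the upper quartile of their list. The 2474 pairs were not matched to these for width, and whether centre distance goes with width was not tested. These 8 pairs were not tested against the rest, since they were chosen through their positions.

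**Figure D4:**
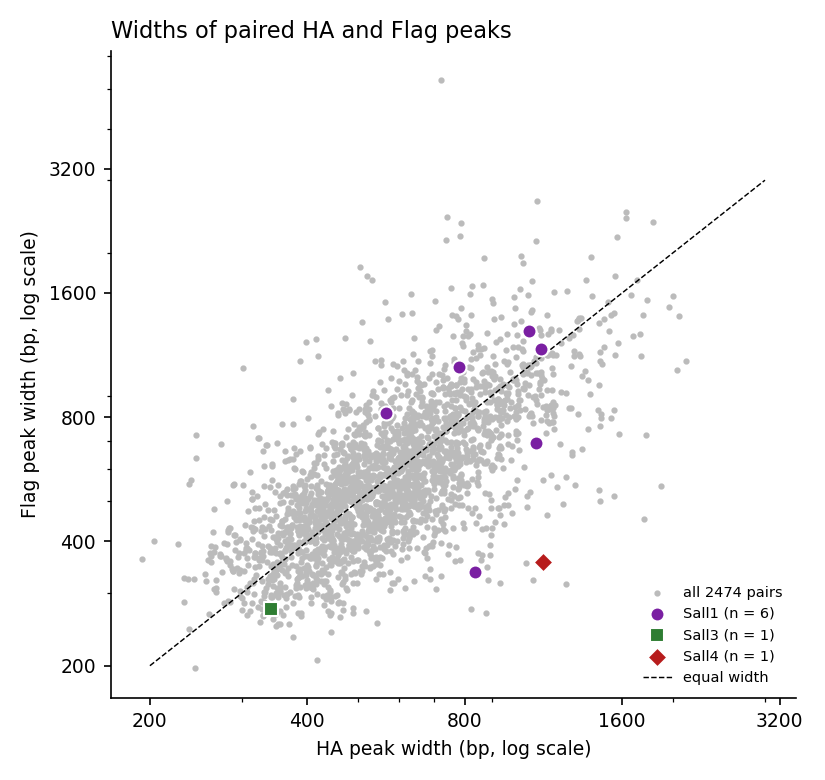
Flag width against HA width (bp, both axes log scale) for all 2474 pairs of 1 HA and 1 Flag peak (grey) and the 8 pairs at the Sall loci (coloured by gene), with a dashed line at equal width. The Sall4 pair (1129 and 357 bp) and 1 Sall1 pair (838 and 338 bp) lie well below the line, and the Sall3 pair is near the narrow end.

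The order of lines in the lists is not explained by the files, and each locus with peaks early in a list also had late ones in the Flag list. The Sall1 site at 91476943 to 91478001 stood earliest, on line 484 of the HA list and line 555 of the Flag list. The first site of the adjoining Sall1 pair stood late in both, on lines 2294 and 3133, while its partner stood early, on lines 722 and 661. The latest Flag lines of all members were also at Sall1, line 4091 for the site nearest the gene and line 4382 for the Flag-only peak. The Sall3 shared site was on lines 1107 and 1525, 32.5% and 33.4% of the way down the lists, but the adjoining Flag-only peak at Sall3 was on line 3854. Both Sall4 HA peaks were late, on lines 2828 and 3138 of 3406, as were both Flag peaks, on lines 3784 and 3444 of 4569. Overlap fell along the lists as a whole, from 95.3% to 48.7% of HA peaks and from 68.4% to 37.1% of Flag peaks between the first and the last of 3 equal parts of the lines.

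The choice of window did not cut through a run of sites. Just inside its edges, the nearest member lay 12.9 kb from the lower edge of the Sall1 window, and the members at Sall3 and Sall4 lay 83.1 kb or more from an edge. Just outside, the nearest peaks at Sall1 were a shared pair ending 89.6 kb below the window (HA 1739 bp, Flag 1123 bp wide). On the upper side a shared pair of 511 bp HA and 515 bp Flag began 124 kb beyond the window. At Sall4 a shared pair lay 84.7 kb above the window, 1008 bp wide in HA against 962 bp in Flag, and at Sall3 the nearest outside peak was a 278 bp Flag-only peak 67.7 kb above it.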

How the data were processed

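The authors deposited 1 peak list per antibody, in which each line has 3 columns, the chromosome, start and end of a peak, as positions in bp and with no other value. Per the submitters' processing notes, positions refer to mm9. Not given in the sources used here were the aligner, the threshold, the tool that called peaks and the use of the input. Which weak sites are listed depends on the threshold of each library. Starts were converted to 1-based positions. Windows and approximate gene ends came with the choice of loci. The members and lists were chosen with earlier results of these data known. Every peak in the windows is named. Density used the largest peak end as chromosome length. The overlap code was tested on simulated data and its counts were checked with bedtools 2.31.1. Python 3.11.15, pandas 2.3.3, numpy 2.4.6, scipy 1.17.1 and matplotlib 3.10.9 were used. No test was run between antibodies or loci, since 1 library per antibody gives no replicate error. Alternatives varied the window, the peaks kept, the overlap and the linking distance. The planned motif search and Sall2, the fourth family member, were not analysed here, for want of an mm9 genome and annotation.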

Additional observations from a re-analysis of the deposited data

How the results depend on the processing

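Of 60 values under alternatives, 47 stayed within 1.5 times the main count or within 1 SD of the peak widths. Several of the 47 could not have moved. Among them are the window changes at Sall3 and Sall4 and the group count of the only HA peak at Sall3. Keeping the first 50% of lines gave 4 Flag peaks at Sall1 instead of 7 and 1 at Sall3 instead of 2, and left 0 HA peaks, 0 Flag peaks and 0 shared peaks at Sall4. Keeping the wider 50% of each list left 0 HA, 0 Flag and 0 shared peaks at Sall3, and 0 Flag and 0 shared peaks at Sall4. Requiring 50% of each peak left 0 shared peaks at Sall4, because 24.0% of the HA peak was covered. Linking below 5 kb gave 5 HA groups at Sall1 instead of 3, and linking below 25 kb gave 3 Flag groups instead of 5. The fullest Sall1 group had 5 HA and 3 Flag peaks, 2 of each below 5 kb, and 5 and 4 below 25 kb. The shortened lists hold fewer peaks by construction. The windows narrowed or widened by 50 kb at each end moved no count beyond 1.5 times. Widening could not add a peak, since the nearest peak outside any window lay 67.7 kb away. Narrowing could not remove one at Sall3 or Sall4, whose members lay 83.1 kb or more from an edge. At Sall1 the narrowed window still lowered the counts, to 5 HA, 5 Flag and 4 shared peaks instead of 7, 7 and 6. Leaving out a replicate was not possible. No paired analysis was possible because there was a single library for HA and a single one for Flag. The lists carry no read depth, so weak signal at unlisted places has no upper limit here.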
